A study of Mus musculus with 12 samples.

Results

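The genes described here encode 7 enzymes with known or reported activity on steroids (Hsd17b4, Hsd17b7, Hsd17b10, Hsd17b11, Hsd17b12, Srd5a3 and Akr1c18) and the corticoid receptors Nr3c1 and Nr3c2. They were taken by gene symbol, as all 16 probes that the platform annotation gives for these 9 genes, out of 45281 probes and 19057 genes with a named probe. Expression arrays of lower abdominal muscle of male mice measured the effect of turning androgen into oestrogen. The groups, with 4 arrays in each, were AromhumH and AromhumL, which are humanized aromatase transgenic lines with higher and lower human aromatase expression, and the wild type (WT) controls, all of strain FVB/N and 1 month old. The promoter that drives the transgene is not given in the sources used here, and the labels do not tie arrays to animals. The p-values therefore refer to the spread among these arrays, part of which may be technical.

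Aromatase turns androgens into oestrogens, and some of the enzymes described here can act on either side of that step. 17beta-hydroxysteroid dehydrogenases move sex steroids between a potent hydroxyl form and a weak keto form, 5alpha-reductases make the potent androgen dihydrotestosterone, and Akr1c18 inactivates progesterone. Several of these enzymes carry out other reactions in most tissues, in cholesterol, fatty acid, isoleucine or dolichol metabolism, so a transcript level does not show which substrate is used. The glucocorticoid receptor (Nr3c1) and the mineralocorticoid receptor (Nr3c2) are ligand-activated transcription factors, and in skeletal muscle glucocorticoids acting through Nr3c1 are known to promote protein breakdown.

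Levels are log2 intensities after background correction and quantile normalization, and an array called a probe detected when its detection p-value was below 0.05. Between 17198 and 18867 probes were detected per array. AromhumH arrays were brighter than AromhumL arrays, at a mean raw intensity of 334.7 ± 31.6 against 259.0 ± 25 (SD, n = 4 each, two-sided exact permutation p = 0.0286, the smallest that 4 arrays against 4 can give). WT arrays lay between them at 317.9 ± 49.9 (SD, n = 4). All 7 skeletal muscle markers with a named probe were detected on 12 of 12 arrays. Of 7 genes that mark steroid-producing cells, Cyp17a1, Star, Hsd3b1, Cyp21a1 and Cyp11b1 were detected on 0 arrays, Cyp11a1 on 2 and Insl3 on 12.

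Of the 9 genes, 8 passed the filter of detection on at least 4 of the 12 arrays and were tested, each on its brightest probe. Group means were compared by limma, with p-values adjusted over all 10575 genes tested and a gene called changed at an adjusted p under 0.05. None of the 8 was called in AromhumH versus WT, where 1.18% of all genes were called (0.879% rose and 0.303% fell). Of the 8, 1 had an unadjusted p under 0.05, against 16.7% of all genes. None was called in AromhumL versus WT either, where 0% of all genes were called. There 1 of the 8 had an unadjusted p under 0.05, against 885 (8.37%) of all genes. In AromhumH versus AromhumL, where 6.03% of all genes were called, 1 of the 8 fell and 0 rose. That gene was Akr1c18. In the same comparison 2 of the 8 had an unadjusted p under 0.05, against 24.9% of all genes. Arrays of the groups separated without overlap for 0 genes above and 1 below in AromhumH versus WT (5.34% and 3.33% of all genes), 1 above and 0 below in AromhumL versus WT (2.55% and 1.68%), and 0 above and 2 below in AromhumH versus AromhumL (7.73% and 8.05%). Those genes were Hsd17b7 and Akr1c18.

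**Figure D1:**
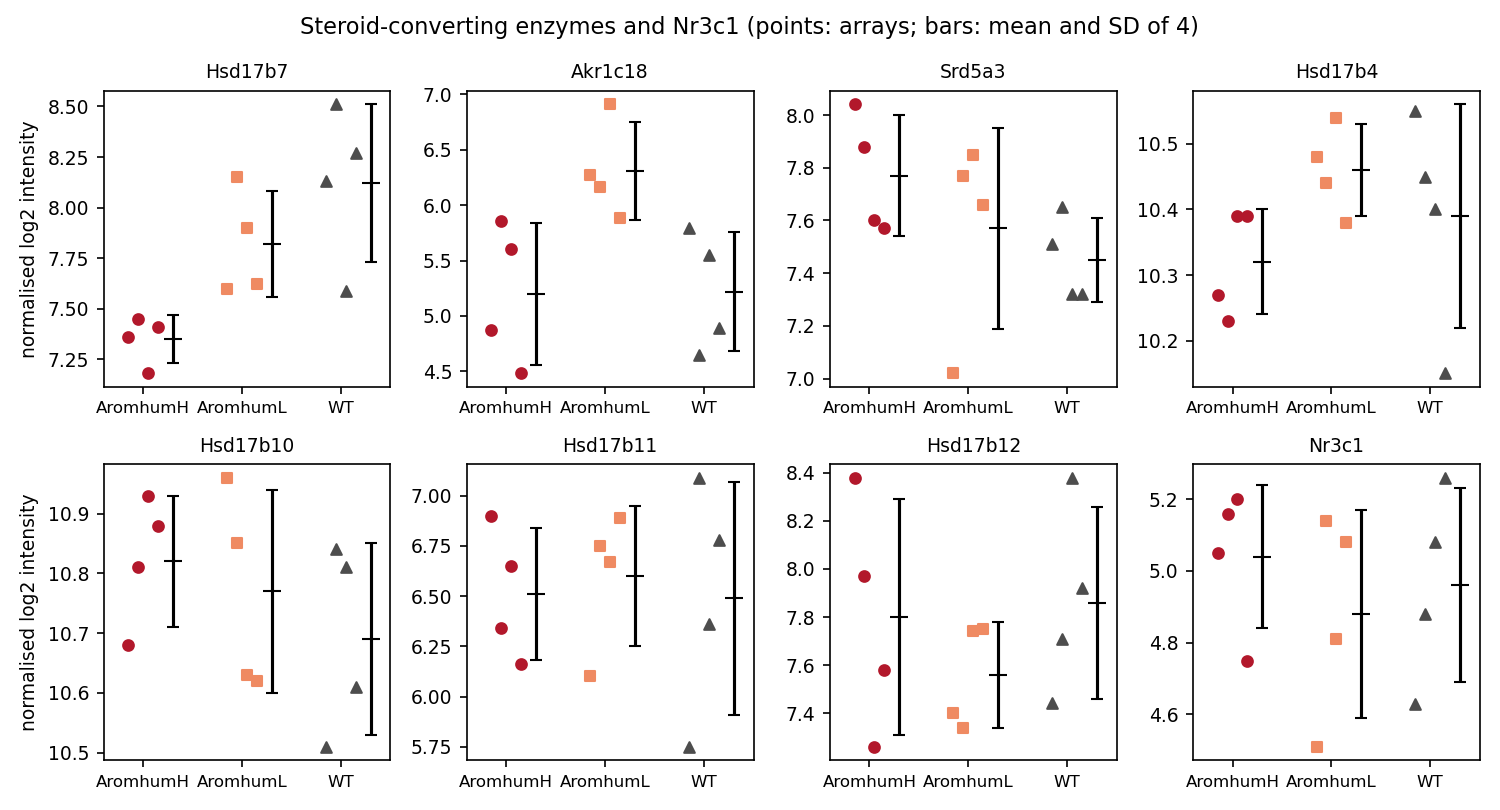
Normalised log2 intensity (vertical axis, its own scale in each panel) of the brightest probe of 8 genes on every array, with AromhumH left, AromhumL in the middle and WT right, and the mean with SD of 4 arrays beside the points. Hsd17b7 lay between 7.18 and 7.45 on AromhumH arrays, below every AromhumL and WT array, and Akr1c18 lay between 5.88 and 6.91 on AromhumL arrays, above every AromhumH and WT array.

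Hsd17b7 encodes an enzyme that reduces oestrone to oestradiol and also serves as a 3-keto reductase in cholesterol synthesis. Its normalised log2 intensities were 7.36, 7.45, 7.18 and 7.41 on AromhumH arrays, 7.60, 8.15, 7.90 and 7.62 on AromhumL arrays, and 8.13, 8.51, 7.59 and 8.27 on WT arrays. All 4 AromhumH arrays were thus lower than every array of either other group, while AromhumL and WT overlapped.

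The mean level of Hsd17b7 was 7.35 ± 0.12 in AromhumH and 8.12 ± 0.39 in WT (SD, n = 4 each). Its log2 difference of -0.78, a 1.71-fold lower level (SE 0.182, 95% interval -1.16 to -0.39), did not pass over all genes by limma (adjusted p = 0.0515; two-sided exact permutation p = 0.0286, unadjusted). The adjusted p lay on both sides of the threshold across other settings: 4 of 10 processing alternatives passed (0.0405 to 0.116 over the 10), among them the fit with the replicate number as a block (adjusted p = 0.0466). Of 12 fits that left out 1 array, 2 passed, those without WT 3 (log2 -0.95, adjusted p = 0.0178) and without AromhumL 2 (log2 -0.78, adjusted p = 0.0484). On the authors' processed values the difference was -0.46 (adjusted p = 0.087).

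AromhumL stood between the other groups for Hsd17b7, at 7.82 ± 0.26 (SD, n = 4). In AromhumL versus WT its log2 difference was -0.30 (95% interval -0.69 to 0.08, limma adjusted p = 0.638). In AromhumH versus AromhumL it was -0.47 (95% interval -0.86 to -0.08, limma adjusted p = 0.125). Both comparisons share the arrays of a group with the AromhumH versus WT comparison. A second Hsd17b7 probe was detected on 0 of 12 arrays, so the pattern rests on a single probe.

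Markers of another cell type moved on the same arrays. All 5 mesothelial markers tested lay above WT in AromhumH and 4 of them were called (Msln, Upk1b, Upk3b and Krt19). Their mean centred log2 level ran from 0.56 to 1.40 on AromhumH arrays, against -1.04 to 0.08 on AromhumL arrays and -1.0 to -0.19 on WT arrays. The 7 skeletal muscle markers stayed between 0.00 and 0.04 on AromhumH arrays, -0.08 and 0.00 on AromhumL arrays, and 0.00 and 0.04 on WT arrays. The part of the mesothelial shift in the level of Hsd17b7 was not tested. In whole tissue, fewer cells of a type and less RNA per cell cannot be told apart.

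Akr1c18 encodes a mouse hydroxysteroid dehydrogenase that converts progesterone to a weakly active metabolite. Its normalised log2 intensities were 4.87, 5.86, 5.60 and 4.48 on AromhumH arrays, 6.27, 6.16, 6.91 and 5.88 on AromhumL arrays, and 5.79, 4.65, 5.55 and 4.89 on WT arrays. All 4 AromhumL arrays were higher than every AromhumH and WT array, and AromhumH and WT overlapped throughout. The gene was dim: its raw intensities ran from 84.0 to 131 on AromhumH arrays, 110 to 173 on AromhumL arrays and 90.6 to 121 on WT arrays. It was detected on 3 of 4 AromhumH, 4 of 4 AromhumL and 3 of 4 WT arrays.

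In AromhumH versus AromhumL Akr1c18 fell by 1.11 on the log2 scale, to 5.20 ± 0.64 in AromhumH against 6.31 ± 0.44 in AromhumL (SD, n = 4 each), which is 2.15-fold lower (SE 0.310, 95% interval -1.76 to -0.45, limma adjusted p = 0.048). Among all genes 2.01% fell in this comparison. In AromhumL versus WT it stood 2.12-fold higher (log2 1.09, SE 0.310, 95% interval 0.43 to 1.75), but no gene passed there (limma adjusted p = 0.57; two-sided exact permutation p = 0.0286, unadjusted). In AromhumH versus WT the difference was -0.02 (95% interval -0.68 to 0.64, limma adjusted p = 0.988). The mean level of Akr1c18 was thus highest in the line labelled with the lower aromatase expression, but its difference from WT did not pass. The lowest AromhumL array (5.88) also stood close to the highest AromhumH array (5.86), so an order by aromatase level is not settled.

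The call for Akr1c18 depended on the processing. It passed in 3 of 9 alternatives, with median scaling (log2 -1.20, adjusted p = 0.0288), the replicate block (adjusted p = 0.0342) and only the 2 groups compared (adjusted p = 0.0417). Without the detection filter its adjusted p was 0.129, and with array brightness as a covariate it was 0.594 at a log2 difference of -1.17. With that covariate 0 of all 10575 genes passed in this comparison. The difference shrank to -0.44 without background correction (adjusted p = 0.0704) and to -0.28 on the authors' processed values (adjusted p = 0.0846). Among the 12 fits without 1 array it passed in 4, those without AromhumH 3, WT 1, WT 2 or WT 4. Over the 12 the log2 difference ran from -1.32 to -0.86 and the adjusted p from 0.0326 to 0.143, the highest without AromhumH 4. Enzymes of the Akr1c family resemble each other in sequence, and whether the probe also reads other members of the family was not tested. Between the same groups 4 of 5 mesothelial markers and 2 of 8 fibroblast markers rose, and fibroblast markers had a mean centred log2 level of -0.03 to 0.45 on AromhumH arrays against -0.44 to 0.02 on AromhumL arrays. Their part in the differences described for this comparison was not tested.

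**Figure D2:**
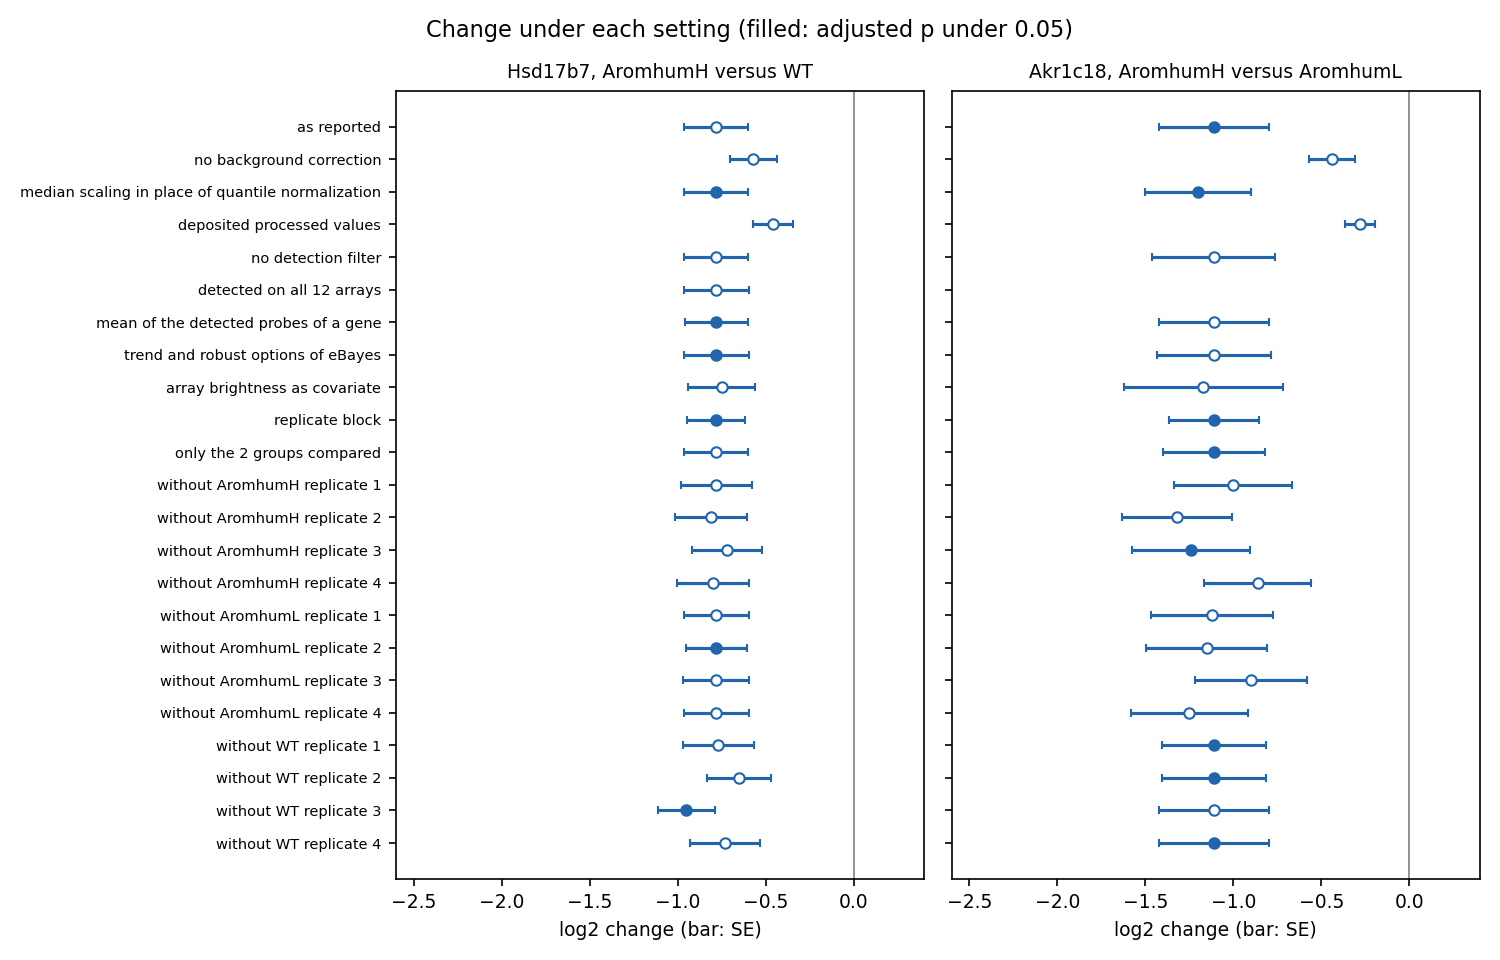
Log2 change (horizontal axis, bars are SE) of Hsd17b7 in AromhumH versus WT (left) and of Akr1c18 in AromhumH versus AromhumL (right) as reported, under each processing alternative and without each array. Every change lay below 0, from -0.95 to -0.46 for Hsd17b7 and from -1.32 to -0.28 for Akr1c18, and filled points, those with an adjusted p under 0.05, stand among open ones in both panels. Akr1c18 has no point for detection on all 12 arrays because it did not meet that filter.

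Srd5a3 encodes a reductase that makes dolichol from polyprenol and has been reported to reduce testosterone. On its brightest probe the normalised log2 intensities were 8.04, 7.88, 7.60 and 7.57 on AromhumH arrays, 7.02, 7.77, 7.85 and 7.66 on AromhumL arrays, and 7.51, 7.65, 7.32 and 7.32 on WT arrays. The groups overlapped, and AromhumL 1 was the lowest of the 12 arrays. Its log2 difference was 0.32 in AromhumH versus WT (95% interval -0.06 to 0.70, limma adjusted p = 0.390), 0.12 in AromhumL versus WT (95% interval -0.25 to 0.50, adjusted p = 0.857) and 0.20 in AromhumH versus AromhumL (95% interval -0.18 to 0.57, adjusted p = 0.534).

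The other detected Srd5a3 probes did not all follow the brightest. In AromhumL versus WT they stood at -0.13 and -0.24, where the brightest stood at 0.12, and the mean of the 3 detected probes was -0.08. In AromhumH versus AromhumL the dimmest of the 3 had the largest difference, 0.48 (adjusted over all probes that passed the filter, limma adjusted p = 0.0755), with 6.73 to 7.30 on the 4 AromhumH arrays against 6.37 to 6.74 on the 4 AromhumL arrays. Those ranges overlapped narrowly. All 3 probes lay above 0 in AromhumH versus WT, at 0.32, 0.08 and 0.24, and 0 of them passed.

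**Figure D3:**
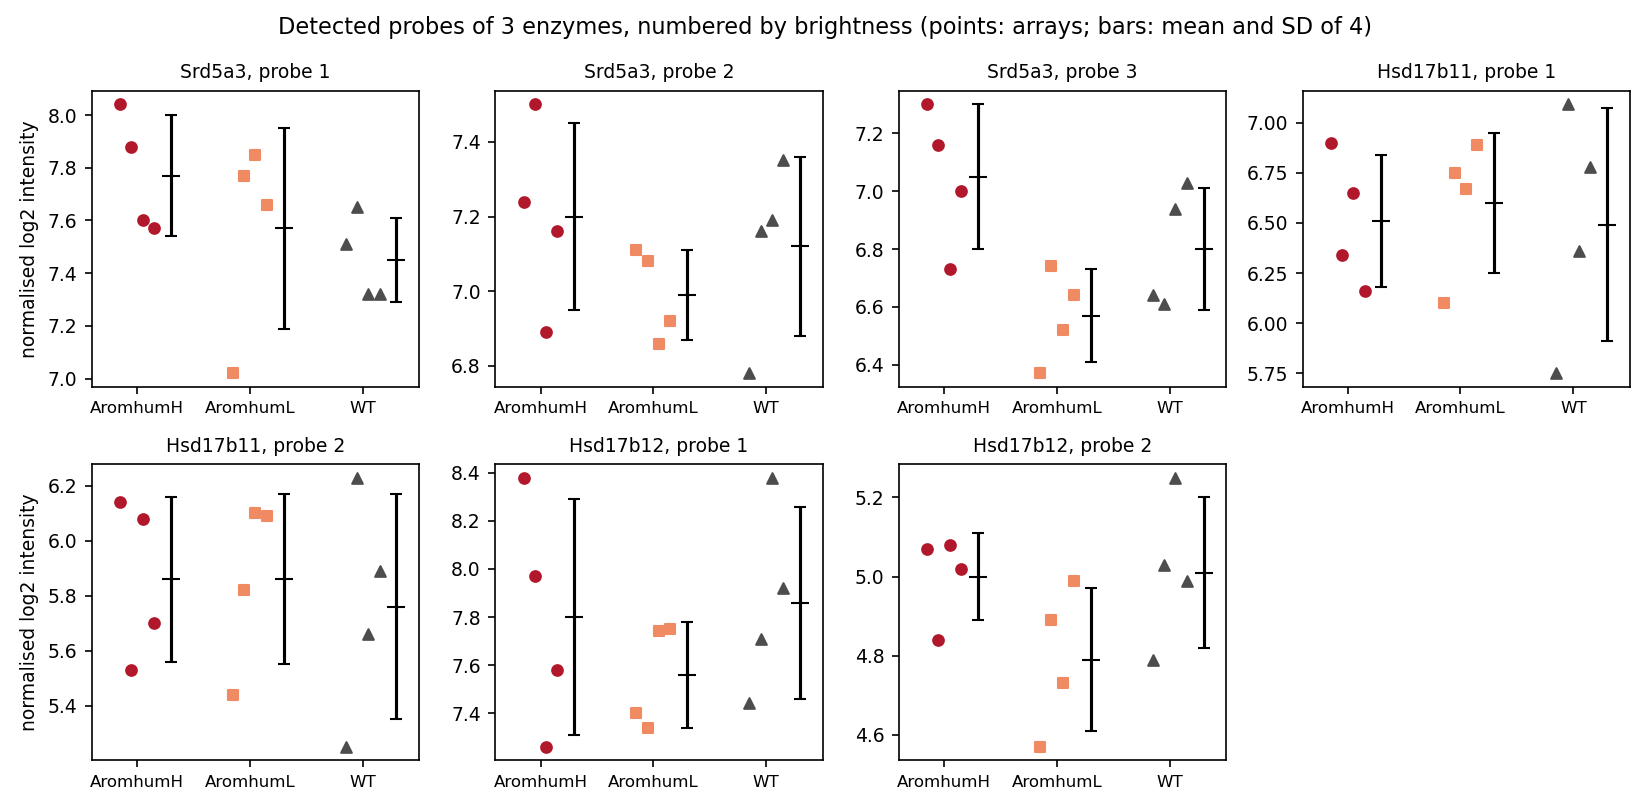
Normalised log2 intensity (vertical axis, its own scale in each panel) of each detected probe of Srd5a3, Hsd17b11 and Hsd17b12 on every array, numbered from the brightest probe of a gene, with mean and SD of 4 arrays. Both Hsd17b11 probes were lowest on WT 1 (5.75 and 5.25) and highest on WT 2 (7.09 and 6.23), and the groups overlapped on every probe shown, AromhumH and AromhumL narrowly (6.73 and 6.74) on the third of Srd5a3.

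The steadiest of the enzymes over the 12 arrays were Hsd17b4, a peroxisomal enzyme that oxidises oestradiol and takes part in fatty acid beta-oxidation, with a log2 range of 0.39, and Hsd17b10, a mitochondrial enzyme of isoleucine breakdown and a subunit of mitochondrial RNase P, with a range of 0.45. Hsd17b4 averaged 10.32 ± 0.08 on AromhumH, 10.46 ± 0.07 on AromhumL and 10.39 ± 0.17 on WT arrays (SD, n = 4 each). Its log2 differences were -0.07 in AromhumH versus WT (95% interval -0.32 to 0.19), 0.07 in AromhumL versus WT (95% interval -0.18 to 0.33) and -0.14 in AromhumH versus AromhumL (95% interval -0.39 to 0.12). Hsd17b10 averaged 10.82 ± 0.11 on AromhumH, 10.77 ± 0.17 on AromhumL and 10.69 ± 0.16 on WT arrays (SD, n = 4 each). Its differences were 0.13 in AromhumH versus WT (95% interval -0.14 to 0.41), 0.07 in AromhumL versus WT (95% interval -0.20 to 0.35) and 0.06 in AromhumH versus AromhumL (95% interval -0.22 to 0.33). These intervals leave out a change of over 0.41 in either direction on the log2 scale, and limma adjusted p-values of the 2 genes ran from 0.509 to 0.884.

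Hsd17b11, a lipid droplet enzyme that oxidises androstanediol, varied more within groups than between them. Its brightest probe read 6.90, 6.34, 6.65 and 6.16 on AromhumH arrays, 6.10, 6.75, 6.67 and 6.89 on AromhumL arrays, and 5.75, 7.09, 6.36 and 6.78 on WT arrays. The WT arrays alone spanned 1.34 on the log2 scale, the whole range of the 12 arrays. Log2 differences were 0.02 in AromhumH versus WT, 0.11 in AromhumL versus WT and -0.09 in AromhumH versus AromhumL (limma adjusted p = 0.986, 0.921 and 0.863), and 95% intervals reached from -0.63 to 0.65. A further Hsd17b11 probe was detected on 12 of 12 arrays and stood at 0.11, 0.11 and -0.0038 in the same comparisons, and the remaining probe was detected on 0 arrays.

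Hsd17b12 encodes a ketoacyl-CoA reductase of very-long-chain fatty acid elongation, and its mouse form can also make testosterone from androstenedione. The brightest probe read 8.38, 7.97, 7.26 and 7.58 on AromhumH arrays, 7.40, 7.34, 7.74 and 7.75 on AromhumL arrays, and 7.44, 7.71, 8.38 and 7.92 on WT arrays. AromhumH spanned 1.12 and held both the lowest array of all and, with WT 3, the highest level. Log2 differences were -0.07 in AromhumH versus WT (95% interval -0.56 to 0.42), -0.30 in AromhumL versus WT (95% interval -0.80 to 0.19) and 0.24 in AromhumH versus AromhumL (95% interval -0.25 to 0.73), with limma adjusted p-values of 0.926, 0.696 and 0.566. With array brightness as a covariate the last turned to -0.29 and that of AromhumL versus WT to 0.11. The dimmer probe stood at -0.01, -0.22 and 0.21 in the same comparisons.

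Nr3c1, the glucocorticoid receptor, was measured by a single probe close to the limit of detection, with raw intensities of 89.6 to 105 on AromhumH arrays, 77.7 to 99.1 on AromhumL arrays and 84.4 to 111 on WT arrays. Its normalised log2 intensities were 5.05, 5.16, 5.20 and 4.75 on AromhumH arrays, 4.51, 5.14, 4.81 and 5.08 on AromhumL arrays, and 4.63, 4.88, 5.08 and 5.26 on WT arrays. The groups overlapped, and the probe was not detected on 1 AromhumL and 1 WT array. Log2 differences were 0.08 in AromhumH versus WT (95% interval -0.29 to 0.44), -0.08 in AromhumL versus WT (95% interval -0.44 to 0.29) and 0.16 in AromhumH versus AromhumL (95% interval -0.21 to 0.52), with limma adjusted p-values of 0.873, 0.915 and 0.614. Median scaling turned all 3 signs (-0.0055, 0.12 and -0.13), so no direction could be given for Nr3c1 at this signal.

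Both probes of Nr3c2, the mineralocorticoid receptor, were detected on 0 of 12 arrays. The gene was not well above background in any group and no fold is given for it.

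**Figure D4:**
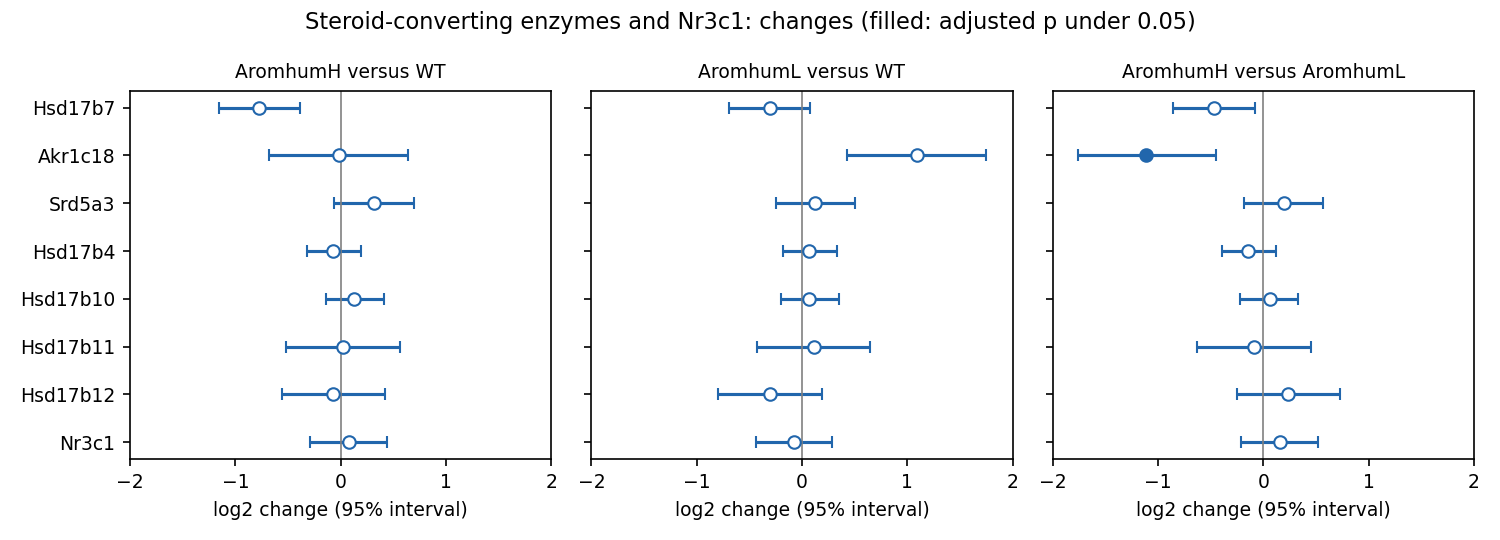
Log2 change (horizontal axis, positive is higher in the group named first) with its 95% interval for the 8 tested genes in AromhumH versus WT, AromhumL versus WT and AromhumH versus AromhumL. The filled point, Akr1c18 at -1.11, is the 1 with an adjusted p under 0.05, and the intervals of Hsd17b7 in AromhumH versus WT (-1.16 to -0.39) and of Akr1c18 in AromhumL versus WT (0.43 to 1.75) also lie on one side of 0.

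Among 43 other steroid-converting enzymes and their partners, 8 had no named probe, 25 did not pass the detection filter and 10 were tested. Of the 10, 0 were called in AromhumH versus WT and 0 in AromhumL versus WT. In AromhumH versus AromhumL 1 fell (2.01% of all genes fell). An unadjusted p under 0.05 by limma was found for 2, 3 and 1 of the 10 in that order, against 16.7%, 8.37% and 24.9% of all genes. The median log2 change of the 10 was 0.06, 0.04 and 0.00 in the 3 comparisons, beside 0.0059, 0.0073 and -0.0029 over all genes. The gene that fell was Hsd11b1, which regenerates active glucocorticoid from its inert keto form and so sets the ligand supply of Nr3c1 inside a tissue. It read 8.35, 8.84, 9.13 and 8.07 on AromhumH arrays, 9.39, 9.23, 9.92 and 9.33 on AromhumL arrays, and 9.78, 9.38, 9.52 and 8.96 on WT arrays. All 4 AromhumH arrays lay below all 4 AromhumL arrays, and AromhumH 3 overlapped WT 4.

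Hsd11b1 was 1.83-fold lower in AromhumH than in AromhumL (log2 -0.87, SE 0.230, limma adjusted p = 0.040). In AromhumH versus WT it stood at -0.82 (SE 0.230, adjusted p = 0.0912) and in AromhumL versus WT at 0.05 (adjusted p = 0.958). Its other detected probes gave -0.71 and -0.78 in AromhumH versus AromhumL (adjusted p = 0.0678 and 0.049 over all probes that passed the filter) and -0.77 each in AromhumH versus WT. The call held in 6 of 10 processing alternatives, with a log2 difference of -0.88 to -0.68. Their highest adjusted p was 0.612, with array brightness as a covariate, a fit in which 0 of all genes passed. The call held in 5 of 12 fits that left out 1 array, and the highest adjusted p was 0.121, without AromhumH 4 (log2 -0.69). Adipocyte markers, from a cell type in which Hsd11b1 is known to be abundant, had a mean centred log2 level of -1.13 to 1.54 on AromhumH arrays, -0.50 to 0.14 on AromhumL arrays and -0.28 to 0.93 on WT arrays, with 0 of 6 tested called. All 6 lay below 0 in AromhumH versus WT (median log2 change -0.77) and in AromhumL versus WT (-0.59). In AromhumH versus AromhumL 3 lay above 0 and 3 below (0.07). Their part in the differences of Hsd11b1 was not tested. In AromhumL versus WT the smallest p of the list was that of the sulfotransferase Sult1a1, at -0.38 (limma adjusted p = 0.592).

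Glucocorticoid-responsive genes gave 3 calls among 26 tested (28 listed) in AromhumH versus AromhumL, 2 that rose and 1 that fell, against 4.02% and 2.01% of all genes. The list median was 0.14, and 12 of the 26 had an unadjusted p under 0.05, against 24.9% of all genes. In AromhumH versus WT 0 were called by limma (8 of 26 at an unadjusted p under 0.05, against 16.7% of all genes, median 0.03) and in AromhumL versus WT 0 (2 of 26 unadjusted, against 8.37% of all genes, median 0.00). Sgk1, a kinase induced by corticoids, read 11.41, 11.63, 11.50 and 11.34 on AromhumH arrays, 12.04, 12.07, 12.27 and 12.14 on AromhumL arrays, and 12.27, 12.17, 11.66 and 11.82 on WT arrays. AromhumH lay below both other groups without overlap. Its log2 change was -0.66 in AromhumH versus AromhumL (SE 0.145, limma adjusted p = 0.0219) and -0.51 in AromhumH versus WT (SE 0.145, adjusted p = 0.0936).

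The metallothionein Mt1, which glucocorticoids and metals induce, went the other way. It read 12.31, 12.38, 12.15 and 12.20 on AromhumH arrays, 11.21, 11.94, 11.67 and 11.58 on AromhumL arrays, and 11.44, 11.85, 11.59 and 11.67 on WT arrays, with AromhumH above both groups without overlap. Its log2 change was 0.66 in AromhumH versus AromhumL (SE 0.153, limma adjusted p = 0.0255) and 0.62 in AromhumH versus WT (adjusted p = 0.0571). Angptl4, an inhibitor of lipoprotein lipase, was 3.13-fold higher in AromhumH than in AromhumL (log2 1.65, SE 0.430, adjusted p = 0.0383), at 9.34, 8.48, 8.55 and 9.69 on AromhumH arrays against 7.30, 6.99, 7.22 and 7.98 on AromhumL arrays. WT arrays spanned both, at 6.56, 8.52, 8.57 and 9.13.

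**Figure D5:**
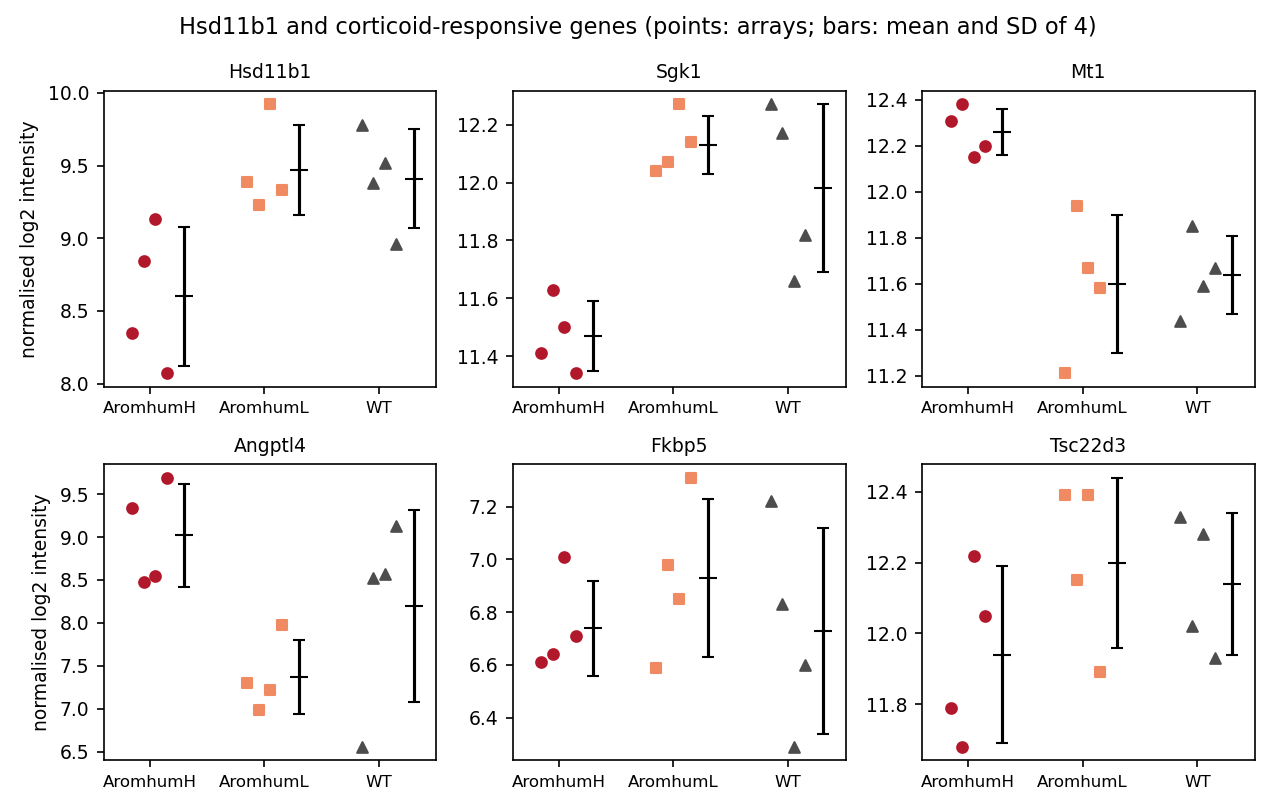
Normalised log2 intensity (vertical axis, its own scale in each panel) of the brightest probe of Hsd11b1 and 5 corticoid-responsive genes on every array. AromhumH is left, AromhumL in the middle and WT right, with mean and SD of 4 arrays. AromhumH arrays lie below AromhumL arrays for Hsd11b1 and Sgk1 and above them for Mt1 and Angptl4, while Fkbp5 and Tsc22d3 overlap on the probe shown. Another detected Tsc22d3 probe, not shown, stood at -1.05 in AromhumH versus AromhumL (limma adjusted p = 0.022 over all probes that passed the filter).

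These 4 calls in AromhumH versus AromhumL were all lost with array brightness as a covariate, at limma adjusted p-values of 0.612 for Hsd11b1, 0.612 for Sgk1, 0.616 for Mt1 and 0.685 for Angptl4. The log2 differences then were -0.79, -0.45, 0.47 and 0.94, and all 4 were nearer to 0 than without the covariate. In that fit 0 of all 10575 genes passed, and brightness separated the groups compared. The loss of these calls there was therefore not particular to the 4 genes. Of the 12 fits that left out 1 array, Sgk1 passed in 8, Mt1 in 7 and Angptl4 in 5. Angptl4 also missed the threshold without background correction (adjusted p = 0.0606), on the authors' processed values (0.0729), without the detection filter (0.116) and with the trend and robust options of limma (0.0841).

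Fkbp5 and Tsc22d3, further targets of Nr3c1, showed no call on their brightest probes, whereas Sgk1 and Mt1 were called in AromhumH versus AromhumL. Fkbp5, a co-chaperone of the receptor and one of its targets, stood at 0.0087 in AromhumH versus WT, 0.20 in AromhumL versus WT and -0.19 in AromhumH versus AromhumL (limma adjusted p = 0.991, 0.770 and 0.585). The brightest probe of Tsc22d3, which encodes the glucocorticoid-induced leucine zipper, stood at -0.20, 0.06 and -0.27 (adjusted p = 0.561, 0.930 and 0.318). Its other detected probes stood lower in AromhumH versus AromhumL, at -1.05 (adjusted p = 0.022 over all probes that passed the filter) and -0.66 (adjusted p = 0.110), so the probes of this gene disagreed on the call. Over 10 processing alternatives the Tsc22d3 difference in that comparison ran from -0.66 to -0.11, and 1 of them passed (limma adjusted p = 0.0425).

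Receptors and helper proteins around the corticoid receptors were not called. Of all genes, 16.7%, 8.37% and 24.9% had an unadjusted p under 0.05 in AromhumH versus WT, AromhumL versus WT and AromhumH versus AromhumL. Of 12 chaperones tested (13 listed) 0 were called in each comparison by limma, with 0, 1 and 2 at an unadjusted p under 0.05 in AromhumH versus WT, AromhumL versus WT and AromhumH versus AromhumL. The smallest p-values were those of Hsp90aa1, the inducible HSP90, at 0.54 (adjusted p = 0.356; 0.24 on its other detected probe), Bag1 at 0.30 (0.592) and Ptges3, the HSP90 co-chaperone p23, at 0.56 (0.0731). Of 5 coregulators tested (10 listed) 0 were called, with 0, 1 and 1 unadjusted. Nrip1, a nuclear receptor corepressor, had the smallest p in both comparisons with AromhumL, but it was detected on 4 AromhumH, 0 AromhumL and 3 WT arrays, so it was not well above background in AromhumL and no difference is given. The chromatin remodeller Smarca4 had the smallest p in AromhumH versus WT, at 0.27 (adjusted p = 0.346). Of 2 sex steroid receptors tested (5 listed) 0 were called, with 0, 0 and 2 unadjusted. Esr1, oestrogen receptor alpha, stood at 0.46, -0.15 and 0.61 (adjusted p = 0.438, 0.901 and 0.193). The membrane oestrogen receptor Gper1 stood at 0.28, -0.21 and 0.49 (adjusted p = 0.327, 0.666 and 0.0509). Gper1 was dim, with raw intensities of 107 to 117 on AromhumH, 82.9 to 94.4 on AromhumL and 94.1 to 117 on WT arrays. Over 10 processing alternatives its AromhumH versus AromhumL difference ran from 0.09 to 0.57, and 2 of them passed.

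The pathways in which the enzymes have their other roles held no called gene on the brightest probes in any of the 3 comparisons. Over all genes, 51.0%, 51.3% and 49.5% lay above 0, and 16.7%, 8.37% and 24.9% had an unadjusted p under 0.05, in AromhumH versus WT, AromhumL versus WT and AromhumH versus AromhumL, and the counts of these lists are descriptions beside those shares. Of 15 cholesterol synthesis genes tested, the pathway that Hsd17b7 also serves, 8 lay above 0 and 7 below in AromhumH versus WT, with a median of 0.02 and 2 at an unadjusted p under 0.05 by limma. In AromhumL versus WT 3 lay above 0 and 12 below (median -0.13, 1 unadjusted). In AromhumH versus AromhumL 9 lay above 0 and 6 below (median 0.14, 5 unadjusted). Pmvk had the smallest p in AromhumH versus WT (log2 -0.45, adjusted p = 0.14), Nsdhl in AromhumL versus WT (0.33, adjusted p = 0.592) and Idi1 in AromhumH versus AromhumL (0.45, adjusted p = 0.0668). Nsdhl and Idi1 were near background: the Nsdhl probe was detected on 4 AromhumL and 2 WT arrays, with -0.18 and 0.09 on its other detected probes, and the Idi1 probe was detected on 4 AromhumH and 2 AromhumL arrays. Of 12 peroxisomal beta-oxidation genes, the pathway of Hsd17b4, 7 lay below 0 in AromhumL versus WT and 6 in AromhumH versus AromhumL. In AromhumH versus WT 9 lay below 0, with a median of -0.16 and 4 at an unadjusted p under 0.05. The carrier thiolase Scp2 stood at -0.46 in that comparison (adjusted p = 0.103). Other detected Scp2 probes read -0.39 and -0.44 there, and -0.90 and -0.36 in AromhumH versus AromhumL, where the first passed over all probes that passed the filter (limma adjusted p = 0.0215 and 0.0943). Pex14, of the peroxisomal import machinery, had the smallest p in AromhumL versus WT at 0.37 (adjusted p = 0.592) and in AromhumH versus AromhumL at -0.40 (adjusted p = 0.107).

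Of 6 elongation genes, which act with Hsd17b12, Elovl1 stood at 0.63 in AromhumH versus WT (limma adjusted p = 0.121) and 0.58 in AromhumH versus AromhumL (0.0851), and Elovl5 at -0.43 in AromhumL versus WT (0.605). The Elovl1 probes disagreed: the others detected read 0.34, -0.04 and -0.02 in AromhumH versus WT and 0.58, -0.36 and -0.46 in AromhumH versus AromhumL, and the mean of its detected probes read 0.23 and 0.08 (adjusted p = 0.403 and 0.729). The list medians were -0.19, 0.07 and -0.22 in that order, with 2, 1 and 0 genes at an unadjusted p under 0.05. Of 8 genes of mitochondrial RNase P and isoleucine breakdown, around Hsd17b10, the branched-chain dehydrogenase subunit Bckdhb stood at -0.30 in AromhumH versus WT (adjusted p = 0.303), Bckdha at 0.33 in AromhumL versus WT (0.592) and the thiolase Acat1 at -0.42 in AromhumH versus AromhumL (0.0785). There 0, 1 and 3 genes had an unadjusted p under 0.05, and medians were -0.13, -0.05 and -0.19. Acat1 was dim, with raw intensities of 98 to 113 on AromhumH and 102 to 109 on AromhumL arrays.

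Of 10 dolichol genes, around Srd5a3, 6 lay above 0 in AromhumH versus WT, 9 in AromhumL versus WT and 5 in AromhumH versus AromhumL. In AromhumL versus WT the median was 0.19, with 2 at an unadjusted p under 0.05 by limma. There Nus1, a subunit of the dolichol-forming prenyltransferase, read 0.57 (adjusted p = 0.57). Dpagt1 stood at 0.33 in AromhumH versus WT (adjusted p = 0.177, list median 0.14, 3 unadjusted) and Dpm1 at -0.50 in AromhumH versus AromhumL (adjusted p = 0.0737, list median 0.03, 3 unadjusted). Dpm1 was dim, with raw intensities of 115 to 126 on AromhumH and 106 to 135 on AromhumL arrays. Of 13 lipid droplet genes, around Hsd17b11, 11 lay below 0 in AromhumH versus WT, 9 in AromhumL versus WT and 8 in AromhumH versus AromhumL. In AromhumH versus WT the median was -0.17 (0 unadjusted), with Plin2 at -0.38 (adjusted p = 0.316). Plin3 stood at 0.48 in AromhumL versus WT (adjusted p = 0.592, list median -0.07, 2 unadjusted) and Fitm2 at -0.43 in AromhumH versus AromhumL (adjusted p = 0.0642, list median -0.10, 1 unadjusted), with -0.09 and -0.50 on its other detected probes.

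The profile of Hsd17b7 over the 12 arrays, centred on its mean and divided by its SD, was closest to those of Gbp10, Vldlr, Tiam1, Fst and Gdap1. The root mean square difference from Hsd17b7 was 0.326 SD for Gbp10, 0.396 for Vldlr, 0.459 for Tiam1, 0.494 for Fst and 0.504 for Gdap1, against a median of 1.37 over all genes. For Nr3c1 the closest were Ccng2 (0.432), Ppp2r2b (0.444), Slc38a4 (0.468), Btk (0.481) and Trim37 (0.492), against a median of 1.36. The arrays share depth and group differences, so these likenesses are descriptions only.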

How the data were processed

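RNA was labelled with biotin and hybridised to 1-colour Illumina bead arrays. The main table holds, per the file headers, a raw intensity for each probe and array with its detection p-value. The authors also deposited processed values, on a log2 scale and quantile-normalized as judged from the values. The sources used here name no scanner software, genome build or batch, so no coordinates are printed and no batch was tested. Of 45281 probes, 34885 had 1 symbol in the platform annotation, 18 several and 10378 none, and only the first were named.

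Intensities were normalized with neqc (limma 3.58.1, R 4.3.3, offset 16). Probes with a detection p-value below 0.05 on at least 4 of 12 arrays were kept (19004), and the brightest named probe stood for each of 10575 genes. Group means of all 12 arrays were fitted with lmFit and eBayes (9 residual and 6.53 prior degrees of freedom; median SE 0.16, set by the number of arrays), with Benjamini-Hochberg adjustment. Probes were also fitted singly. The script was tested on simulated data. Correlations within groups ran from 0.9763 to 0.9876, and 0 pairs of arrays were identical. Alternatives changed the background step, scaling, filter, probe choice, eBayes options, covariates and arrays, and arrays were left out without normalizing again.

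The genes and lists were chosen with earlier results of these data known. The rule names the 9 genes, up to 4 called genes of each list per comparison or else the smallest p, Fkbp5, Tsc22d3, Hsd11b1 and Esr1, and the 5 genes closest in profile to Nr3c1 and to the member of smallest p. Srd5a1 was not analysed here.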

Additional observations from a re-analysis of the deposited data

Results flagged for a closer look

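In 5 genes the change in AromhumH versus WT differed from that in AromhumL versus WT, as tested by AromhumH versus AromhumL (limma, adjusted over all genes). In that comparison 6.03% of all genes were called. The difference was -1.11 for Akr1c18, -0.87 for Hsd11b1, -0.66 for Sgk1, 0.66 for Mt1 and 1.65 for Angptl4. The 4 AromhumH arrays lay on one side of the 4 AromhumL arrays in each. These genes were flagged by the call on the same arrays, so that separation adds no support. Over all genes, 7.73% separated above and 8.05% below. Array brightness separated the same groups.

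In 4 more genes every AromhumH array lay on one side of the WT mean and every AromhumL array on the other. The test of the difference did not pass: Dpm1 at -0.50 (limma adjusted p = 0.0737), Fitm2 at -0.43 (0.0642), Gper1 at 0.49 (0.0509) and Ptges3 at 0.56 (0.0731). Each of these genes had been named for the smallest p of its list in AromhumH versus AromhumL, so such a separation was selected for. Over all genes, 7.73% lay above and 8.05% below without overlap in that comparison. The share over all genes for sides of the WT mean was not computed. The signals of Gper1 and Dpm1 were dim in every group. Raw intensities of Dpm1 ran from 115 to 126 on AromhumH, 106 to 135 on AromhumL and 119 to 136 on WT arrays.

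Among 117 groups of 4 arrays examined for a sample far from the others, 1 stood out, and chance alone marks about 5% of such groups: Dpm1 read 6.44 on WT 1, against 5.65 to 5.79 on the other WT arrays.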

How the results depend on the processing

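The main limits are 4 arrays per group, signal near background for Akr1c18 and Nr3c1, and brightness that differed between AromhumH and AromhumL. Of the 8 genes tested, 1 was called in AromhumH versus WT (Hsd17b7) with median scaling, with the mean of the detected probes, with the trend and robust options and with the replicate block. In AromhumH versus AromhumL the 1 call (Akr1c18) became 0 without background correction, without the detection filter, on the deposited processed values, with detection on all 12 arrays, with the mean of the detected probes, with the trend and robust options and with array brightness as a covariate. Leaving out 1 array gave 0 to 1 in both comparisons. Of all genes, 125 were called in AromhumH versus WT, against 76 on the deposited processed values, 36 without the filter, 69 with the brightness covariate and 2 to 316 on leaving out 1 array. In AromhumH versus AromhumL 638 were called, against 348, 210, 0 and 64 to 1060. Those 638 split into 425 that rose and 213 that fell, and with median scaling into 333 and 518. The lowest counts came without AromhumH 2 in AromhumH versus WT and without AromhumL 1 in AromhumH versus AromhumL, and the highest without AromhumH 3 in both. Counts also moved by over 1.5 times without AromhumH 1, AromhumH 4, WT 1, WT 2 or WT 4 in AromhumH versus WT, and without AromhumH 1, AromhumH 2, AromhumH 4, AromhumL 2 or AromhumL 4 in AromhumH versus AromhumL. In AromhumL versus WT 0 were called under every alternative run.

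Signs of small differences that did not pass turned as follows. With brightness as a covariate, AromhumH versus WT read -0.10 for Hsd17b11 and -0.02 for Nr3c1. AromhumH versus AromhumL then read -0.29 for Hsd17b12, 0.01 for Hsd17b4, -0.29 for Nr3c1 and 0.02 for Fkbp5. AromhumL versus WT then read 0.11 for Hsd17b12, -0.05 for Hsd17b4, 0.26 for Nr3c1, 0.27 for Esr1, -0.01 for Hsd11b1, 0.11 for Mt1, -0.0098 for Sgk1 and -0.06 for Tsc22d3. With median scaling Nr3c1 read -0.0055, 0.12 and -0.13 in AromhumH versus WT, AromhumL versus WT and AromhumH versus AromhumL. Without background correction and on the deposited values, AromhumH versus WT read -0.005 and -0.0069 for Hsd17b11 and -0.0027 and -0.0042 for Fkbp5. With the mean of the detected probes Srd5a3 read -0.08 in AromhumL versus WT. The causes were not tested.

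On leaving out 1 array, signs turned in AromhumH versus WT for Akr1c18 (-0.24 to 0.22), Hsd17b11 (-0.23 to 0.22), Hsd17b12 (-0.26 to 0.11), Nr3c1 (-0.03 to 0.18) and Fkbp5 (-0.14 to 0.17). They turned in AromhumL versus WT for Hsd17b4 (-0.0052 to 0.13), Hsd17b11 (-0.14 to 0.31), Nr3c1 (-0.19 to 0.05), Esr1 (-0.43 to 0.03), Hsd11b1 (-0.10 to 0.18), Mt1 (-0.15 to 0.09) and Tsc22d3 (-0.0057 to 0.17), and in AromhumH versus AromhumL for Hsd17b11 (-0.26 to 0.03).

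Replicate numbers did not pair the arrays: deviations of same-numbered arrays correlated at -0.254 to 0.393, with 2 of 12 pairs over 0.1, and 2 of 12 arrays were closest to their own number. With the replicate block 108 genes were called in AromhumH versus WT and 466 in AromhumH versus AromhumL.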

Other observations

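The second probe of Hsd17b7, detected on 0 of 12 arrays, read 4.35, 4.41, 4.26 and 4.30 on AromhumH arrays, 4.46, 4.62, 4.59 and 4.71 on AromhumL arrays, and 4.22, 4.31, 4.27 and 4.34 on WT arrays. All 4 AromhumL arrays were above every other array, whereas on the detected probe of the gene AromhumL lay between the other groups. These values are at background and carry no level.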
